A study of Homo sapiens with 6 samples.

Results

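The genes described here encode the protein folding, import and quality control machinery of the endoplasmic reticulum (ER). They were chosen by symbol, as 46 named genes of the 23227 in the count table, and all 46 were found through their Ensembl identifiers and passed the filter on low counts. They fall into 5 roles: 4 stress sensors and their transcription factors, 13 chaperones and their partners, 7 oxidoreductases, 12 genes of the translocon, and 10 genes of ER-associated degradation (ERAD). RNA was sequenced from MV4-11, an established acute myeloid leukaemia cell line, described in the labels as wild type in genotype in both groups. The 3 control libraries are labelled as having no treatment and carry the letters NC in their titles. In the 3 other libraries ENO1, which encodes alpha-enolase of glycolysis, was knocked down. The knockdown columns bear the name of 1 hairpin (sh2), so the group rests on that hairpin. The labels do not say whether the controls carried a hairpin, when the cells were taken, or whether replicates were separate cultures. The p-values therefore speak only of the spread among these 6 libraries, and that spread may be technical.

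Proteins that are secreted or sit in membranes enter the ER through the SEC61 channel, lose their signal peptide, and fold there with the help of the chaperone BiP (HSPA5), the lectins calnexin and calreticulin, and the disulfide isomerases. Proteins that fail to fold are recognised, drawn back through the membrane, ubiquitinated and degraded by the proteasome, which is ERAD. When unfolded proteins build up, the sensors IRE1 (ERN1), ATF6 and PERK start the unfolded protein response, in which ATF6 and the spliced form of XBP1 raise the transcription of many of the genes described here. In myeloid cells this machinery serves the making of granule proteins and surface receptors.

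ENO1 itself was at 3240, 3262 and 3285 CPM (counts per 1000000, on library sizes scaled by TMM) in the controls and at 103, 101 and 102 CPM in the knockdown libraries. Total counts ran from 24778469 to 26373960 in the controls and from 20044602 to 21670135 in the knockdown libraries. Mitochondrially encoded genes took 6.69 to 6.88% of the counts in the controls and 9.27 to 9.69% in the knockdown libraries. All 8 myeloid genes checked (PTPRC, SPI1, CD33, FLT3, MPO, CEBPA, LYZ and CSF1R) were expressed, with a summed level of 1954 to 1980 CPM in control cells against 1905 to 1939 CPM after knockdown; 4 of the 8 were higher and 4 lower, with MPO and LYZ at log2 fold changes of -2.61 and -2.41 and PTPRC at 1.10. The B cell genes PAX5 and CD79A were at 0.172 ± 0.0942 and 0.257 ± 0.174 CPM in the controls (SD, n = 3). Both rose, to 1.37 ± 0.514 and 0.833 ± 0.221 CPM (SD, n = 3; edgeR adjusted p = 3.19e-06 and 0.00319), while MS4A1 was at 0 in the controls. Of 5 T cell markers 3 were measured (CD3E, CD3G and CD2), all at 0 in the controls and at most 0.279 CPM in sum with the knockdown. Of 6 epithelial and fibroblast markers 5 were measured, summing to 18.5 to 20.1 and 45.1 to 48.3 CPM, nearly all of it KRT8 and KRT18, with EPCAM at 0 in the controls. CD3D, TRAC and CDH1 were not analysed here. LYZ, CEBPA, KRT8 and KRT18 share 35.8, 37.1, 16.1 and 24.5% of their 50-base transcript stretches with other genes, so their counts are uncertain. The part of these markers and of the mitochondrial share in the results below was not tested. In bulk RNA, fewer cells making a transcript and less of it per cell cannot be told apart.

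Some of these genes carry promoter letters of the ER stress response. Members were chosen by name and not by these letters, but many are known targets of ATF6 and XBP1. The shares of members with such letters are therefore not independent of that choice. The comparison with all genes is not limited to the genes tested here. The ER stress response element (ERSE), the site through which ATF6, together with the factor NF-Y, is known to act, reads CCAAT, then 9 bases of any kind, then CCACG. Its variant ERSE-II reads ATTGG, 1 base of any kind, then CCACG. Windows from 250 bases before to 50 bases after the RefSeq transcript starts (build GRCh38.p14) were available for 42 of the 46 genes, with 52 windows in all, and not for DERL1, PDIA3, SPCS1 and DERL3. Searched on both strands, ERSE letters stood in windows of 8 of the 42 genes (19.0%), against 25 of all 27305 genes with windows (0.0916%). ERSE-II letters stood in those of 3 of the 42 (7.14%), against 19 of all genes (0.0696%). The stretches below are shown because they hold these letters upstream of genes described in the results. Capitals mark the fixed letters of the ERSE or ERSE-II, read 5′ to 3′ along the gene's own strand, so a match on the other strand appears reversed and complemented (CGTGG before ATTGG or CCAAT).
HSPA5: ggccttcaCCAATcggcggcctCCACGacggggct
XBP1: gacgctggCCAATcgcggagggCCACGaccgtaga
CRELD2: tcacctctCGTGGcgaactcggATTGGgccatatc
CALR: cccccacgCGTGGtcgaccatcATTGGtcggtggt
PDIA6: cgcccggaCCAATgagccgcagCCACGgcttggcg
ERO1B: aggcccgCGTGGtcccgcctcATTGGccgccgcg
HERPUD1: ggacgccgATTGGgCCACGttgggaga
SDF2L1: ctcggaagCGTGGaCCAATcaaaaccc
HYOU1: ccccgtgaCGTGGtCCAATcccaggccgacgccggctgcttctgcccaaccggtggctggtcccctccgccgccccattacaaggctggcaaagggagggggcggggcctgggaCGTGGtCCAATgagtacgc

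The HSPA5 stretch lies at chr9:125241383-125241417 on the minus strand and spans 74 to 40 bases before the start, and that of XBP1 at chr22:28800595-28800629 on the minus strand, 60 to 26 bases before it. The CALR stretch is at chr19:12938376-12938410 on the plus strand, 233 to 199 bases upstream, and that of HERPUD1 at chr16:56932017-56932043 on the plus strand, 125 to 99 bases upstream. SDF2L1 has its stretch at chr22:21642106-21642132 on the plus strand and ERO1B at chr1:236282175-236282208 on the minus strand. HYOU1 holds ERSE-II letters at 2 places of a stretch at chr11:119057266-119057398 on the minus strand, 193 to 61 bases before the start. None of these 7 stretches overlapped a GENCODE exon, except for 3 bases at the end of that of XBP1. The stretches of CRELD2 (chr22:49918546-49918580, plus strand) and PDIA6 (chr2:10812845-10812879, minus strand) lie within their own genes, between exons, upstream of a RefSeq start of the gene. HSP90B1 (at 2 places) and CANX also held ERSE letters in their windows; these lie in GENCODE exons of their own genes and are not printed. A further motif, the unfolded protein response element (UPRE, TGACGTGG), stood in windows of 4 of the 42 genes, HYOU1, SEC62, SSR3 and SSR4 (9.52%, against 0.927% of all genes). In HYOU1 its letters overlap those of the upstream ERSE-II. The letters TGATGNAA, as in sites bound by ATF4, stood in the window of HERPUD1 alone (2.38%, against 4.46% of all genes). A match describes letters only and does not show that a factor bound there.

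**Figure D1:**
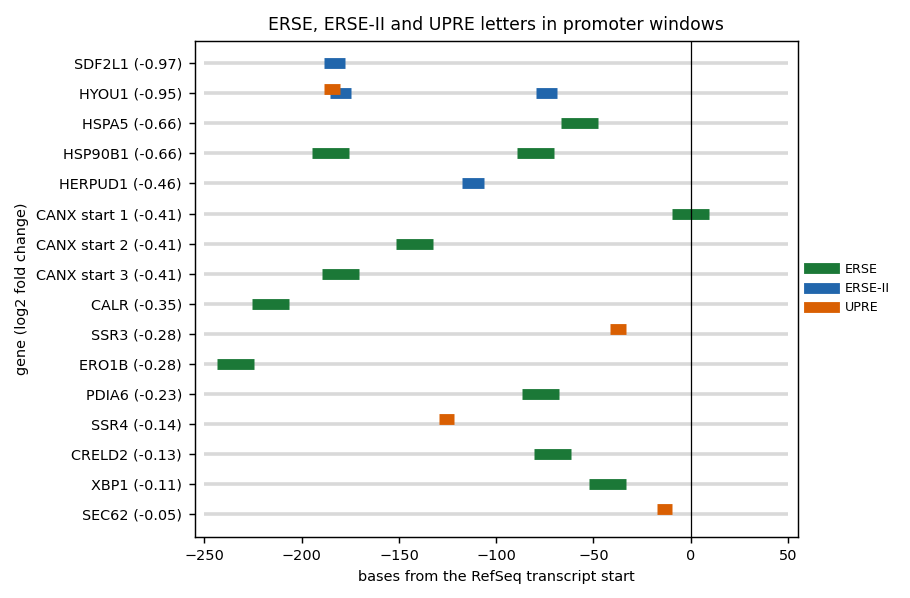
Position of ERSE, ERSE-II and UPRE letters (coloured bars) in promoter windows, in bases from the RefSeq transcript start (x axis, vertical line at the start), for the genes with at least 1 match, ordered by log2 fold change (in brackets). Grey lines are the windows, and CANX has a line for each of its windows with a match; the matches of HSPA5, PDIA6, CRELD2 and XBP1 lie within 100 bases of the start, and genes with a match run from SDF2L1 at -0.97 to SEC62 at -0.05.

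Most of the 46 genes were lower in the knockdown cells. They were chosen with earlier results of these data known, so the comparisons with all genes are not independent of that choice. Neighbouring lists of the secretory pathway, given further on, were more mixed. Of the 46 genes, 36 fell and 2 rose at an edgeR adjusted p below 0.05, and 8 did not pass. Over all 14635 genes tested, 30.5% fell and 29.4% rose, which is 59.9% in either direction. The median log2 fold change of the 46 genes was -0.38, against 0.00 over all genes tested, and their values ran from -1.16 to 0.35. All 3 knockdown libraries lay below all 3 controls for the 36 genes that fell (32.5% of all genes tested did so), and above them for the 2 that rose (31.8%). The groups of the other 8 overlapped, while 64.3% of all genes tested had groups that did not overlap. Falls of at least 1.5-fold were seen for 11 of the 46 genes, against 8.77% of all genes, and no member rose by that much. Well expressed genes fell more often in these libraries in general: among genes with a mean of at least 100 CPM over the 6 libraries, 52.5% fell, and 22 of the 25 members at that level did. Among genes with a lower mean 26.3% fell, and 14 of the 21 such members did.

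**Figure D2:**
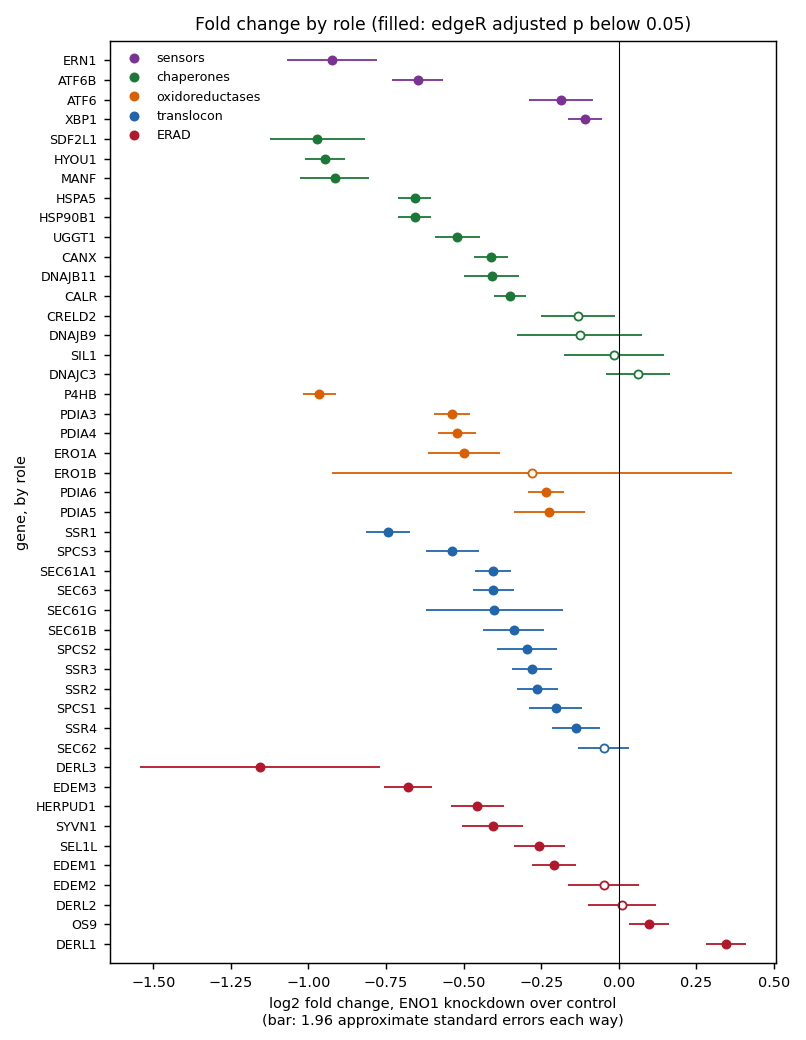
Log2 fold change (x axis, knockdown over control) of the 46 genes by role, with bars for the approximate 95% interval; filled points passed the edgeR test and open points did not. All sensors lie left of 0, while ERAD genes reach from -1.16 for DERL3 to 0.35 for DERL1.

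Summed over the 46 genes, the level was 10737, 10730 and 10790 CPM in control cells against 7616, 7670 and 7771 CPM after knockdown, which is 28.5% lower. The groups did not overlap. P4HB alone gave 26.7% of the net fall of 3067 CPM, and together with HSPA5, HSP90B1, CANX and CALR it gave 59.8%. By role, the summed level was lower by 40.0% for oxidoreductases, 30.1% for chaperones, 23.8% for the translocon, 19.6% for sensors and 7.94% for ERAD genes. These sums weigh abundant genes most, and differences between roles were not tested. By gene, the median log2 fold changes were -0.50, -0.41, -0.32, -0.42 and -0.23 in the same order.

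All 4 genes of the sensor group fell, by very different amounts. ERN1, which encodes IRE1, the kinase and endoribonuclease that splices XBP1 mRNA, was at 26.5, 25.99 and 24.9 CPM in control cells against 14.04, 13.2 and 13.5 CPM after knockdown. It had a log2 fold change of -0.92 (approximate SE 0.07, edgeR adjusted p = 2.49e-11), which is 47.3% lower. ATF6B, the less studied relative of ATF6, was at 245, 242 and 260 CPM in control cells against 159, 170 and 148 CPM after knockdown, a log2 fold change of -0.65 (edgeR adjusted p = 2.72e-11). ATF6B shares 10.5% of its 50-base stretches with other genes, and TNXB overlaps it on the same strand, so its counts are uncertain. ATF6, a membrane-bound factor that is cut in the Golgi to free its transcription factor domain, was lower in level, at 62.7, 58.8 and 65.0 CPM in the controls. Its knockdown libraries held 51.6, 54.5 and 57.8 CPM, just under the lowest control, for a log2 fold change of -0.19 (edgeR adjusted p = 0.00306). The ratio of ATF6 to ATF6B in CPM was 0.249 ± 0.00635 in the controls and 0.345 ± 0.0394 with the knockdown (SD, n = 3). Ratios between members are given here and below as descriptions and were not tested.

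XBP1, the transcription factor made active by IRE1, had the smallest log2 fold change of the 4. Its level was 358, 358 and 356 CPM in control cells against 331, 331 and 332 CPM after knockdown. The libraries of each group were close together and the groups did not overlap. The log2 fold change was -0.11 (approximate SE 0.03, edgeR adjusted p = 0.00167), and it did not pass on plain library sizes (log2 fold change -0.06, edgeR adjusted p = 0.0912). With upper-quartile scaling or the filter at 5 CPM the XBP1 log2 fold change was -0.07 and passed. Counts per gene do not separate the spliced from the unspliced XBP1 mRNA. Its own promoter holds ERSE letters that begin 52 bases before the start.

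Of 13 chaperones, 9 fell, 4 did not pass and none rose; the median was -0.41 on the log2 scale. The core of the group is BiP, encoded by HSPA5, an HSP70 chaperone that binds unfolded chains, together with the HSP90 family member GRP94 (HSP90B1). HSPA5 was at 823, 811 and 816 CPM in control cells against 521, 505 and 527 CPM after knockdown (log2 fold change -0.66, edgeR adjusted p = 1.39e-17). HSP90B1 was at 768, 771 and 765 CPM in control cells against 484, 483 and 494 CPM after knockdown (log2 fold change -0.66, edgeR adjusted p = 9.01e-18). Both lost 36.6% of their level, and their ratio in CPM was 1.06 ± 0.00989 in the controls and 1.06 ± 0.0156 in the knockdown libraries (SD, n = 3). HYOU1, a large HSP70 relative that renews the ATP of BiP, fell from 255, 253 and 251 CPM to 128, 136 and 129 CPM. Its log2 fold change was -0.95 (approximate SE 0.03, edgeR adjusted p = 4.17e-19), and none of its knockdown libraries came near a control. SIL1, the other nucleotide exchange factor of BiP, was at 16.5 ± 0.685 and 16.4 ± 1.12 CPM (SD, n = 3), and its groups overlapped (log2 fold change -0.02, edgeR adjusted p = 0.876).

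The J proteins, which bring clients to BiP and drive its ATPase, included 2 that fell, with their partner SDF2L1 counted among them, and 2 that did not pass. DNAJB11 fell from 95.6 ± 3.32 to 71.9 ± 3.43 CPM (SD, n = 3; log2 fold change -0.41, edgeR adjusted p = 7.91e-09). Of its transcript sequence, 20.8% in stretches of 50 bases is shared with overlapping genes such as TBCCD1, so its counts are uncertain. SDF2L1, a partner of DNAJB11 that carries ERSE-II letters in its promoter, fell from 37.8 ± 0.909 to 19.2 ± 2.88 CPM (SD, n = 3; log2 fold change -0.97). DNAJB9, which is known as a target of XBP1 and a brake on IRE1, was at 10.6 ± 1.11 and 9.69 ± 0.309 CPM (SD, n = 3), with overlapping groups (edgeR adjusted p = 0.302). The level of DNAJC3, a J protein first known as a kinase inhibitor, was 52.4 ± 0.871 CPM in control cells against 54.7 ± 3.86 CPM after knockdown (SD, n = 3; edgeR adjusted p = 0.317). The 95% interval of its log2 fold change, from -0.04 to 0.17, does not reach the values of HSPA5 or SDF2L1.

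Of the 2 secreted stress proteins MANF fell and CRELD2 did not pass. MANF, a small protein that leaves the cell when ER calcium is low, was at 60.2 ± 3.05 CPM in control cells against 31.9 ± 1.88 CPM after knockdown (SD, n = 3; log2 fold change -0.92, edgeR adjusted p = 8.12e-14). CRELD2, with ERSE letters 80 bases before its start, was at 35.01 ± 1.97 and 32.0 ± 1.41 CPM (SD, n = 3) and did not pass (edgeR adjusted p = 0.0657). Its groups overlapped through control replicate 3 and knockdown replicate 1. Without the former it passed at an edgeR adjusted p of 0.0281, and without the latter at 0.0403.

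The 3 genes of the calnexin and calreticulin cycle, which holds glycoproteins until they are folded, all fell. With length taken as the exon bases of all annotated transcripts of a gene, calreticulin (CALR) had the highest level per length of all 46 genes. It was at 356 CPM per kilobase of exon in the controls and 280 in the knockdown libraries. In CPM it fell from 968 ± 5.46 to 759 ± 9.13 (SD, n = 3; log2 fold change -0.35). Its membrane-bound relative calnexin (CANX) fell from 916 ± 8.54 to 688 ± 20.9 CPM (SD, n = 3; log2 fold change -0.41). UGGT1, which marks misfolded glycoproteins for a further round, had a log2 fold change of -0.52 (159 ± 1.36 to 111 ± 5.26 CPM, SD, n = 3).

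Of the 7 oxidoreductases 6 fell and none rose. P4HB, the founding protein disulfide isomerase and also a subunit of prolyl 4-hydroxylase, was the most abundant member in CPM. It was at 1665, 1668 and 1697 CPM in control cells against 858, 884 and 835 CPM after knockdown. The log2 fold change was -0.97 (approximate SE 0.03, edgeR adjusted p = 2.26e-21), the smallest adjusted p of the 46 genes. PDIA4 was at 254, 257 and 260 CPM in control cells against 180, 178 and 180 CPM after knockdown (log2 fold change -0.52, edgeR adjusted p = 4.42e-14). P4HB had 6.53 ± 0.0341 times the CPM of PDIA4 in the controls and 4.798 ± 0.165 times with the knockdown (SD, n = 3), without overlap of the groups.

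PDIA3, the isomerase that works with calnexin and calreticulin, was at 443, 437 and 452 CPM in control cells against 301, 302 and 315 CPM after knockdown (log2 fold change -0.54, edgeR adjusted p = 9.13e-15). PDIA3 shares 30.4% of its 50-base stretches with other genes, including ELL3, which overlaps it on the other strand, and the copy PDIA3P1. PDIA6 and PDIA5 also fell, with log2 fold changes of -0.23 and -0.22, and 22.4 and 13.1% of their stretches are shared with overlapping neighbours. The oxidase ERO1A, which passes disulfides to P4HB, fell from 40.9 ± 0.593 to 28.9 ± 1.86 CPM (SD, n = 3; log2 fold change -0.50, edgeR adjusted p = 3.70e-08). Its relative ERO1B was barely expressed, at 1.14 ± 0.105 and 0.929 ± 0.367 CPM (SD, n = 3), and its interval ran from -0.92 to 0.36 on the log2 scale, so no change was detectable at this depth.

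In the translocon 11 of 12 genes fell, and the median was -0.32 on the log2 scale. The 3 subunits of the SEC61 channel all fell. SEC61A1, which forms the pore, was at 416, 426 and 439 CPM in control cells against 325, 321 and 321 CPM after knockdown (log2 fold change -0.41, edgeR adjusted p = 2.78e-12). SEC61B was at 57.0 ± 1.30 and 45.1 ± 1.85 CPM (SD, n = 3; log2 fold change -0.34). SEC61G, the smallest subunit, was more scattered, at 25.2, 31.3 and 22.2 CPM in control cells against 19.99, 18.2 and 21.4 CPM after knockdown. The gap between its groups was under 1 CPM, with a log2 fold change of -0.40 (approximate SE 0.11, edgeR adjusted p = 0.00799). Without control replicate 2, its highest library, the SEC61G log2 fold change was -0.26 (edgeR adjusted p = 0.0170). The ratio of SEC61A1 to SEC61B in CPM was 7.48 ± 0.0490 in the controls and 7.16 ± 0.270 in the knockdown libraries (SD, n = 3).

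SEC62 and SEC63 serve the entry of proteins after their synthesis, and SEC63 also brings BiP to the channel. SEC63 was at 248, 259 and 244 CPM in control cells against 188, 183 and 196 CPM after knockdown (log2 fold change -0.40, edgeR adjusted p = 6.01e-11). SEC62 was at 107 ± 0.295 and 104 ± 6.27 CPM (SD, n = 3), with a log2 fold change of -0.05 and overlapping groups (edgeR adjusted p = 0.326). SEC62 did pass with GC and length trends removed, at a log2 fold change of -0.09 (edgeR adjusted p = 0.0177). The ratio of SEC62 to SEC63 in CPM was 0.429 ± 0.0139 in the controls and 0.548 ± 0.0213 in the knockdown libraries (SD, n = 3), without overlap.

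The 4 subunits of the translocon-associated complex TRAP, SSR1 to SSR4, all fell, with log2 fold changes from -0.74 to -0.14. SSR1 was at 351, 345 and 353 CPM in control cells against 198, 206 and 223 CPM after knockdown (log2 fold change -0.74, approximate SE 0.04, edgeR adjusted p = 6.66e-16). SSR2 and SSR3 had log2 fold changes of -0.26 and -0.28. SSR4 went from 111 ± 3.71 to 101 ± 3.32 CPM (SD, n = 3; log2 fold change -0.14, edgeR adjusted p = 0.00409). SSR4 did not pass with GC and length trends removed (log2 fold change -0.04, edgeR adjusted p = 0.308) or on plain library sizes (edgeR adjusted p = 0.0698). The ratio of SSR1 to SSR4 in CPM was 3.14 ± 0.133 in the controls and 2.06 ± 0.151 with the knockdown (SD, n = 3).

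The accessory subunits of signal peptidase, which cuts the signal peptide as chains enter, fell as well. SPCS3 went from 212 ± 8.45 to 146 ± 10.4 CPM (SD, n = 3; log2 fold change -0.54). SPCS2 and SPCS1 had log2 fold changes of -0.30 and -0.20. For both the counts are uncertain: 56.3% of the 50-base stretches of SPCS1 are shared with genes such as NEK4 that overlap it on the other strand, and 15.8% of those of SPCS2 with its copies. The catalytic subunits were not among the 46 genes and are given further on.

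ERAD was the most mixed role, with 6 of 10 genes lower, 2 higher and 2 without a call. The 3 genes grouped here as the HRD1 ubiquitin ligase, through which many luminal proteins leave, were all lower. The derlins and OS9 were counted in other groups. HERPUD1, a stress-induced scaffold of the ligase with ERSE-II letters in its promoter, was at 85.3, 88.2 and 90.3 CPM in control cells against 63.2, 63.9 and 65.2 CPM after knockdown (log2 fold change -0.46, edgeR adjusted p = 5.80e-10). The ligase gene SYVN1 fell from 57.2 ± 1.15 to 43.2 ± 1.25 CPM (SD, n = 3; log2 fold change -0.41), and its partner SEL1L from 110 ± 3.46 to 92.0 ± 3.98 CPM (SD, n = 3; log2 fold change -0.26). For SYVN1, 10.1% of the exon bases overlap other genes, among them FAU on the same strand, so its counts are uncertain.

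The EDEM genes, whose products trim mannose to mark glycoproteins for removal, included 2 that fell and 1 that did not pass. EDEM3 was at 142, 135 and 141 CPM in control cells against 86.3, 85.2 and 89.9 CPM after knockdown (log2 fold change -0.68, edgeR adjusted p = 1.63e-14). EDEM1, known as a target of XBP1, went from 216 ± 2.68 to 187 ± 9.71 CPM (SD, n = 3; log2 fold change -0.21). EDEM2, which makes the first cut, was at 34.3 ± 1.15 and 33.2 ± 1.35 CPM (SD, n = 3) and did not pass (edgeR adjusted p = 0.494). The ratio of EDEM2 to EDEM3 in CPM was 0.246 ± 0.0124 in the controls and 0.380 ± 0.00561 in the knockdown libraries (SD, n = 3).

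The 2 members that rose were both in ERAD. DERL1, a membrane protein of the exit channel, was at 158, 153 and 160 CPM in control cells against 200.01, 199 and 199.96 CPM after knockdown. The groups were well apart, with a log2 fold change of 0.35 (approximate SE 0.03, edgeR adjusted p = 6.07e-10). OS9, the lectin that reads the trimmed glycan, was at 205, 211 and 215 CPM in control cells against 217, 230.0 and 228 CPM after knockdown. Its lowest knockdown library lay just above its highest control (log2 fold change 0.10, edgeR adjusted p = 0.0145). On plain library sizes the OS9 log2 fold change was 0.15. OS9 did not pass without control replicate 1 (edgeR adjusted p = 0.127), without knockdown replicate 2 (0.0852), without the filter on low counts (0.0840) or with DESeq2 (adjusted p = 0.0754), and 10.2% of its stretches are shared with an overlapping gene.

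Of the other derlins, DERL2 did not pass and DERL3 fell. DERL2 was at 34.97 ± 0.957 and 35.2 ± 0.743 CPM (SD, n = 3), with an interval of -0.10 to 0.12 on the log2 scale (edgeR adjusted p = 0.886). The ratio of DERL1 to DERL2 in CPM was 4.495 ± 0.192 in the controls and 5.67 ± 0.138 with the knockdown (SD, n = 3). DERL3 had the lowest log2 fold change of the 46 genes, -1.16, at 4.47 ± 0.782 CPM in control cells against 2.01 ± 0.497 CPM after knockdown (SD, n = 3; edgeR adjusted p = 1.29e-05). As 77.0% of the exon bases of DERL3 overlap SMARCB1 on the other strand, and the strand setting is not given, reads of the genes cannot be told apart there.

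**Figure D3:**
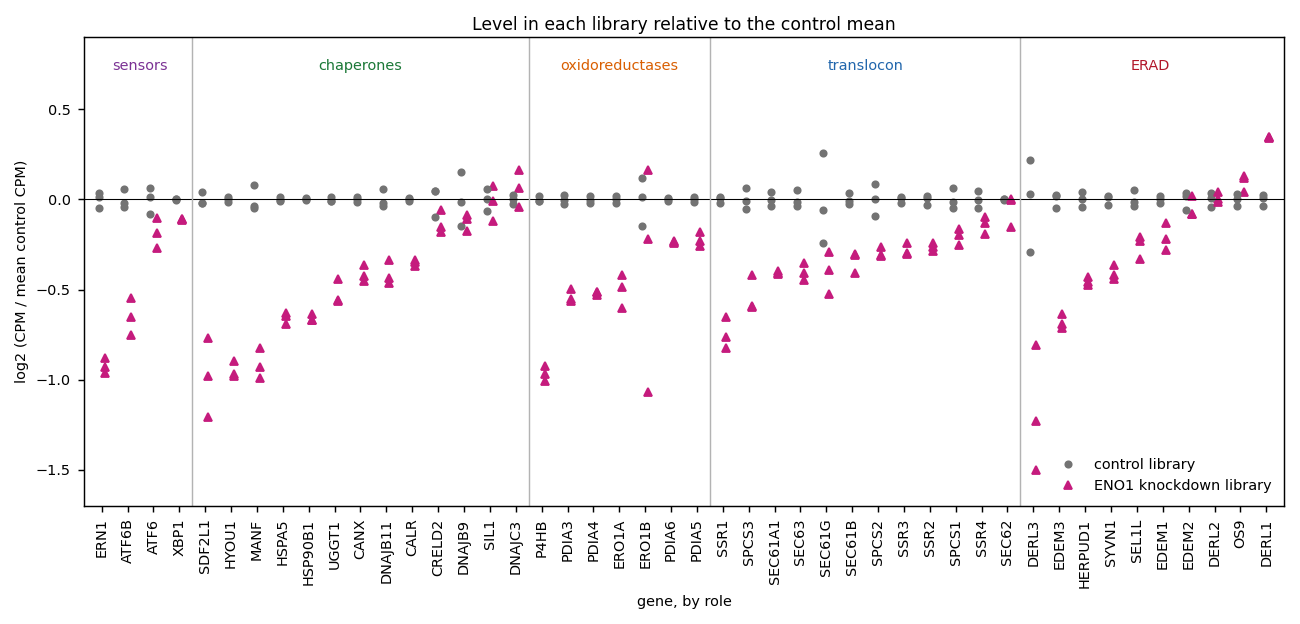
Level of each gene in each library as log2 of its CPM over the mean of the controls (y axis), with grey circles for the 3 control and magenta triangles for the 3 knockdown libraries, grouped by role. The knockdown libraries lie below the controls for 36 genes and above them for DERL1 and OS9; ERO1B, DERL3 and SEC61G are the most scattered.

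Of the 46 genes, 10 had more than 10% of their exon bases or 50-base stretches in common with other genes and are counted as uncertain. Among the other 36, 27 fell and 1 rose, with a median of -0.38. They include P4HB and CALR, just under the limit, with 9.98 and 9.95% of their exon bases overlapped on the other strand. Sorted by promoter, 9 of the 11 genes with ERSE or ERSE-II letters fell and 2 did not pass (median log2 fold change -0.41). Of the 31 genes whose windows held neither, 24 fell and 1 rose, with a median of -0.34. The 4 genes with UPRE letters had a median of -0.21. These groups were not compared by a test.

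The members spanned a wide range of levels. Per kilobase of exon, the controls ranged from 356 CPM for CALR, 316 for P4HB, 209 for HSPA5, 164 for HSP90B1, 147 for CANX and 118 for XBP1 down to 2.37 for ERN1, 1.18 for DERL3 and 0.212 for ERO1B. ERN1, near the bottom of that range, and P4HB, near its top, had log2 fold changes of -0.92 and -0.97. XBP1 and CANX were close in level per kilobase and had log2 fold changes of -0.11 and -0.41. Control level per kilobase and log2 fold change had a Spearman correlation of -0.30 over the 46 genes. Over 14056 tested genes it was -0.32. Lengths count the exon bases of all annotated transcripts of a gene, so the order of levels depends on that choice.

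**Figure D4:**
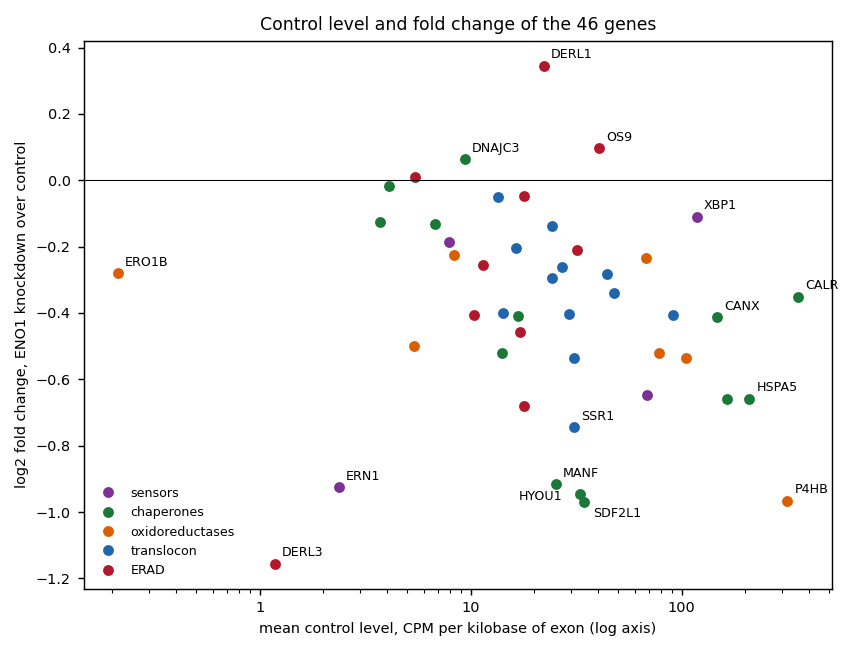
Mean control level in CPM per kilobase of exon (x axis, log scale) against the log2 fold change (y axis) of the 46 genes, coloured by role. Falls near -0.9 to -1.0 are seen from ERN1 at 2.37 to P4HB at 316 CPM per kilobase.

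Other genes of the secretory pathway, from 10 lists of neighbouring complexes, are given for comparison, with 30.5% of all genes tested lower and 29.4% higher. In the signal recognition particle and its receptor, which bring ribosomes to the ER, 5 of 8 genes were called lower and 2 higher (median log2 fold change -0.13). SRP9, SRPRB and SRP72 had log2 fold changes of -0.54, -0.39 and -0.30 and SRP14 of 0.25; SRP9 and SRPRB share over 10% of their stretches with other genes. Of 11 tested subunits of oligosaccharyltransferase, which attaches the glycan, 6 fell and 2 rose, with a median of -0.20. STT3B and OSTC had log2 fold changes of -0.42 and -0.45, and RPN1 and DAD1 of -0.35 and -0.43. In the ER membrane complex, an insertase, 5 of 10 fell and 1 rose, from EMC8 at -0.66 through EMC10 at -0.26 and EMC1 at -0.21 to EMC3 at 0.34; EMC10 shares 11.7% of its stretches with other genes.

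Among 9 further genes of the translocon and of signal peptide processing, 4 rose and 2 fell, with a median of 0.11. SEC11A, a catalytic subunit of signal peptidase, rose from 59.1 ± 1.77 to 99.1 ± 6.08 CPM (SD, n = 3; log2 fold change 0.74, edgeR adjusted p = 1.43e-13), while the accessory subunits SPCS1 to SPCS3 fell. SEC11A shares 11.2% of its stretches with other genes and is uncertain to that extent. SEC11C, the other catalytic subunit, was at 23.1 ± 0.577 and 23.6 ± 1.06 CPM (SD, n = 3) and had no call. It was named after its value was seen (log2 fold change 0.03, edgeR adjusted p = 0.737). TRAM1 and TRAM2, channel partners, rose by 0.19 and 0.25 on the log2 scale, and the signal peptide peptidase HM13 fell by 0.33. Of 17 tested further oxidoreductases and prolyl isomerases 7 fell and 5 rose, with TMX1 at -0.98, PPIB at -0.54, ERP29 at -0.24 and ERP44 at 0.31; PPIB and ERP29 share 24.2 and 19.1% of their stretches with other genes. Of 7 tested genes of glycan trimming and lectins 3 fell and 3 rose. GANAB, the catalytic subunit of glucosidase II, rose from 345 ± 5.50 to 577 ± 16.7 CPM (SD, n = 3; log2 fold change 0.75), whereas the first glucosidase MOGS, LMAN1 and LMAN2 had log2 fold changes of -0.54, -0.48 and -0.17.

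Of 24 further ERAD genes 11 fell and 5 rose (median -0.14). The ubiquitin-conjugating enzymes UBE2G2 and UBE2J1 had log2 fold changes of -0.61 and -0.43, RAD23B of -0.47 and ERLIN1 of -0.39. In the arm of the third sensor, PERK, 4 of 9 genes fell and 3 rose. Its factor ATF4 was at -0.47 and the targets TRIB3 and CHAC1 at -1.76 and -1.37, while the phosphatase subunit PPP1R15B rose by 0.62. PERK itself (EIF2AK3), named after its value was seen, fell from 16.4 ± 0.294 to 10.04 ± 0.981 CPM (SD, n = 3; log2 fold change -0.71, edgeR adjusted p = 1.96e-07). The rest of this list was also named after its values were seen. PPP1R15A and ATF3 rose by 0.62 and 0.96 on the log2 scale. DDIT3 and NCK1 had no call, with log2 fold changes of 0.04 and 0.08. ATF4, EIF2AK3, DDIT3 and, of the next list, MBTPS2 share 17.9, 13.5, 22.5 and 12.9% of their stretches with other genes. Among 12 genes that process or partner ATF6 and IRE1, 5 fell and 6 rose, with the protease MBTPS2 that cuts ATF6 at -0.43, BAX at -0.33, CREB3 at 0.41 and NFYA, a subunit of NF-Y, at 0.38. The other NF-Y subunits, named after their values were seen, did not rise alike. NFYB was called lower (log2 fold change -0.19) and NFYC had no call (0.10).

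**Figure D5:**
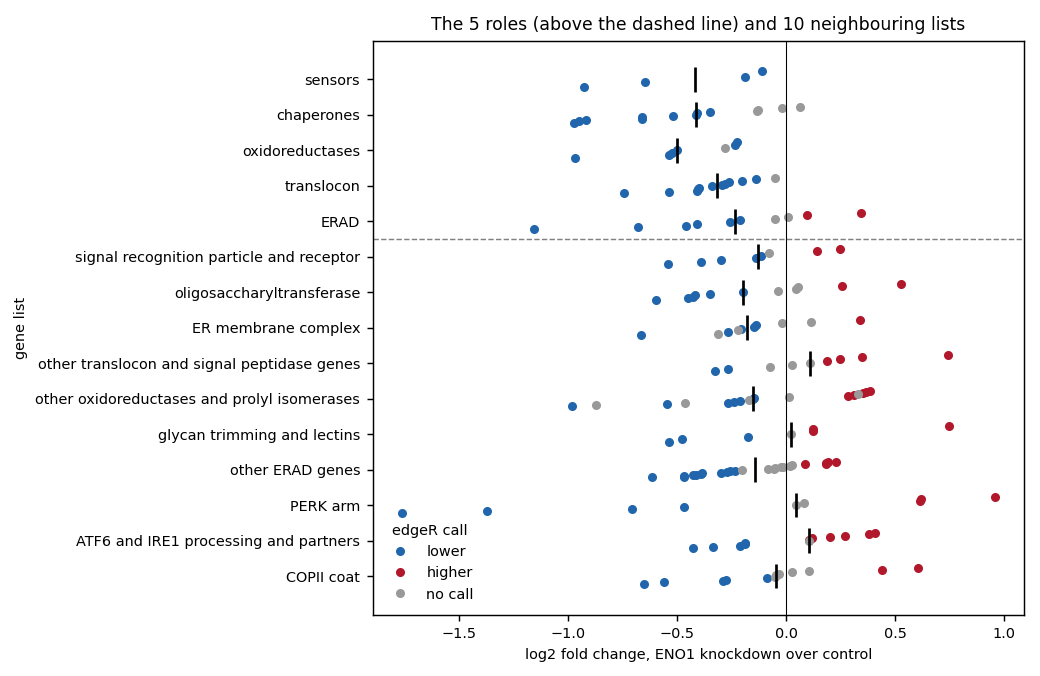
Log2 fold change (x axis) of each tested gene in the 5 roles (above the dashed line) and in 10 neighbouring lists, with blue for lower, red for higher and grey for no call, and a black bar at the median. The medians of the roles run from -0.50 to -0.23, and those of the neighbouring lists from -0.20 to 0.11.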

How the data were processed

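RNA sequencing was done on 6 libraries of MV4-11 cells, 3 per group. The deposited table gives raw read counts by Ensembl gene, as whole numbers, per the file headers. HISAT2 2.0.5 and hg38 were used, per the submitters' processing notes; the sources used here do not give the counter, annotation or strand setting. Columns were matched to samples by group and replicate number.

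Counts of 23227 genes (20044602 to 26373960 per library) were compared between groups in edgeR 4.0.16 (R 4.3.3) with TMM factors, filterByExpr, and a robust quasi-likelihood fit (glmQLFit, then glmQLFTest; two-sided), with p-values adjusted after Benjamini and Hochberg over the 14635 genes that passed the filter and a threshold of 0.05. All 46 genes described passed the filter. Levels are in CPM, using TMM factors. Standard errors are approximate (log2 fold change over the root of the F statistic). The procedure was also run on simulated counts with far fewer changed genes than were called in these data, and nothing here rests on that run. Symbols came from a table of Ensembl IDs. Exons, lengths and transcripts came from GENCODE release 29 (GRCh38), and promoter windows from RefSeq (GRCh38.p14).

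The members and gene lists were chosen with earlier results of these data known. All 46 could be named. Values per library are given for the target, the sensors, the 3 smallest adjusted p of each role and members called upward. They are also given for SEC61G, chosen after its values were seen. At most 4 genes with the smallest adjusted p are named from each neighbouring list. Added to these after their values were seen were EIF2AK3, PPP1R15A, ATF3, DDIT3, NCK1, NFYB, NFYC and SEC11C. These alternatives were run: DESeq2 1.42.0 and limma-voom (limma 3.58.1) in place of edgeR; scaling by RLE, by upper quartile or by library size alone; testing every gene, or those with 5 CPM in 3 libraries; a block for the replicate number; leaving out each library in turn, control replicate 2 and knockdown replicate 3 left out together, mitochondrially encoded genes removed, GC and length trends removed (mgcv 1.9.3), and a threshold of 0.01. The summed level of 1 further marker list, for plasma and B cells, is not reported here.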

Additional observations from a re-analysis of the deposited data

How the results depend on the processing

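The count of 36 members that fell, the counts by role that fell, and the counts of all genes stayed within 1.5 times of their values under each of the 18 alternatives run. The count of members that rose, all in ERAD, was 2 and became 1 without the filter on low counts, with DESeq2 and at a threshold of 0.01, and ran from 1 to 2 as each library was left out. In each case OS9 was lost and DERL1 was not. With control replicate 2 and knockdown replicate 3 left out together, the call of every member and of ENO1 was as before. The median of all genes moved by less than 0.1 on the log2 scale under each scaling. No pairing by replicate number was seen. Deviations of same-numbered libraries from their group means correlated at 0.00289, 0.00917 and -0.0225. Such correlations over all genes tested, from 3 libraries per group, cannot exclude a weak pairing. With the replicate number as a block the members gave 36 falls and 2 rises. Low counts limit ERO1B and DERL3; these could not be tested with the filter at 5 CPM.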

Other observations

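Of 12 genes for the coat of the vesicles that carry cargo out of the ER (COPII), 5 were called lower and 2 higher (median log2 fold change -0.05), against 30.5% and 29.4% of all genes tested. SEC31A, of the outer coat, had 176 ± 3.61 CPM in control cells against 112 ± 1.87 CPM after knockdown (SD, n = 3; edgeR adjusted p = 4.66e-15), and SEC24D had a log2 fold change of -0.56. PREB (SEC12), which starts coat assembly by charging the GTPase SAR1, rose from 209 ± 4.47 to 319 ± 10.8 CPM (SD, n = 3; log2 fold change 0.61, edgeR adjusted p = 4.10e-15), and SAR1A rose by 0.44 on the log2 scale.

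The letters CCAAT, read as an NF-Y box on either strand, stood in promoter windows of 33 of the 42 genes with a window (78.6%), against 39.7% of all genes with windows. Of these 33 genes 26 fell and 1 rose (median log2 fold change -0.35), and of the other 9 genes 7 fell and 2 did not pass (median -0.40). For the 3 derlins the summed level was 196.5 ± 3.95 CPM in control cells against 236.8 ± 0.250 CPM after knockdown (SD, n = 3). Most of this sum was DERL1, with means of 157 CPM in the controls and 200 CPM with the knockdown. DERL2 did not pass and DERL3 fell. The 3 genes grouped here as the HRD1 ligase summed to 255 ± 5.98 and 199 ± 4.47 CPM (SD, n = 3).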
